A study of Mus musculus with 6 samples.

Results

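The chemokine family was described in cultured mouse dorsal root ganglion (DRG) neurons, the sensory neurons whose cell bodies sit beside the spinal cord, given oncomodulin or vehicle. Members were the protein-coding genes of the deposited table whose symbol is Ccl, Cxcl, Xcl, Cx3cl, Ccr, Cxcr or Ackr followed by a number and at most 1 letter. Of the 45777 genes in the table, 21949 of them protein-coding, 57 met this rule, 37 as ligands and 20 as receptors. The symbol of Cxcl11 also matched, but the table gives it as a transcribed pseudogene, so it is described beside its neighbours and counted nowhere.

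Cells came from adult female C57BL/6 mice, 8 weeks old and wild type per the labels. The control group received phosphate-buffered saline (PBS, 3 libraries) and the other group received recombinant oncomodulin (ONCM, 3 libraries), a calcium-binding protein of the parvalbumin family, both for 12 hours and the latter at 100 ng/ml. The comparison asked which transcripts differ between DRG cultures with and without ONCM. Library totals ran from 53770820 to 64477014 counts. The labels call the libraries biological replicates and name no separate cultures or animals, so each p-value reflects spread among the libraries at hand, which may be technical.

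Chemokines are small secreted proteins that guide the migration of leukocytes along concentration gradients. They bind receptors of the seven-transmembrane class coupled to Gi proteins, whereas atypical receptors (Ackr) bind chemokines without that coupling and take them up or carry them across cells. CXC ligands with the Glu-Leu-Arg motif act mainly on neutrophils through Cxcr2, interferon-induced CXC ligands act on T cells through Cxcr3, and many CC ligands act on monocytes, T cells or eosinophils. In DRG, Ccl2 is known as a signal that draws macrophages after nerve injury.

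Before the family is described, 2 properties of the libraries bear on every value. The X-inactivation transcript Xist was at 0.485 to 0.588 CPM (the read count scaled to library size, with TMM factors) with PBS and at 413 to 513 CPM in ONCM, although all 6 samples are labelled female. The Y-linked gene Ddx3y was at 58.1 to 62.4 CPM in PBS and at 15.1 to 16.9 CPM in ONCM, and Uty, Kdm5d and Eif2s3y were also lower with ONCM in every library. Each group therefore holds transcripts that go against its label, and a difference in the source of the cells and the treatment cannot be told apart in the results that follow. In addition, all 18 macrophage marker genes rose with ONCM, against 23.9% of all tested genes. Their summed level was 62.8 to 66.9 CPM in PBS and 194 to 202 CPM in ONCM, and the part of macrophages in the chemokine differences was not tested. In such bulk samples, fewer cells of a type and less RNA per cell cannot be told apart.

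Of the 57 members, 45 had enough counts to be tested, 28 ligands and 17 receptors. With an adjusted p under 0.05 as the threshold (edgeR quasi-likelihood test, Benjamini-Hochberg over all 20354 tested genes), 29 tested members rose with ONCM, 5 fell and 11 did not pass. Among all tested genes 48.3% changed, 23.9% upwards and 24.4% downwards. The median log2 fold change of the tested members was 0.91, against -0.00 over all tested genes. In 33 of the 45 tested members the 3 PBS and 3 ONCM libraries did not overlap, against 55.6% of all tested genes. A rise of at least 2-fold was called for 20 members, against 6.18% of all tested genes. With limma on the log2 of the deposited TPM in place of edgeR on counts, the split of calls over all genes went from 49.5% upwards to 39.2% upwards, while 26 members rose and 5 fell.

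The upstream sequences of 4 risen CXC ligands are shown because these genes are among the larger ligand rises and their promoters hold motif matches. All 4 hold matches to a motif of NF-kB, and Cxcl10 alone also to one of interferon signalling, pathways known to switch on chemokine genes. Cxcl5, the largest ligand rise, had no promoter at hand, and Ccl9, which rose 3.69-fold against 2.97-fold for Cxcl2, is not shown. Each sequence shown is the 250 bases before the annotated start in RefSeq, assembly GRCm38.p6, read 5′ to 3′ on the gene's strand. Cxcl1 is at chr5:90890995-90891244 (plus strand), Cxcl2 at chr5:90903649-90903898 (plus strand), Cxcl3 at chr5:90785851-90786100 (plus strand) and Cxcl10 at chr5:92348890-92349139 (minus strand). Capitals mark matches on either strand to the kappa-B consensus or to the core of the interferon-stimulated response element (a pair of GAAA half-sites 2 bases apart).
Cxcl1: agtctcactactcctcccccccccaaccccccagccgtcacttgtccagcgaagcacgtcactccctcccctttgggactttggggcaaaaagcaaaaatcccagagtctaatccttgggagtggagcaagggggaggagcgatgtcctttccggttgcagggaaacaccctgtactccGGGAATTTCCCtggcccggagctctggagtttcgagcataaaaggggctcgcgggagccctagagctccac
Cxcl2: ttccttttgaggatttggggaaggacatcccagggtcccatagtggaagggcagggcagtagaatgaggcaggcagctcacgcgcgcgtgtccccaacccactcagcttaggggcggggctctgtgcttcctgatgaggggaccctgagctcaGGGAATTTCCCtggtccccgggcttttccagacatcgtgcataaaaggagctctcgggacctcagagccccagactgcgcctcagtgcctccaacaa
Cxcl3: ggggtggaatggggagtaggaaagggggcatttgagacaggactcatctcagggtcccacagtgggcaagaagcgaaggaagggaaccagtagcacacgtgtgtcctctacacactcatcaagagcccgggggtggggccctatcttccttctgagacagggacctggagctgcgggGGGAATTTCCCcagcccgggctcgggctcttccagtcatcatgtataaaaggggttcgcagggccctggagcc
Cxcl10: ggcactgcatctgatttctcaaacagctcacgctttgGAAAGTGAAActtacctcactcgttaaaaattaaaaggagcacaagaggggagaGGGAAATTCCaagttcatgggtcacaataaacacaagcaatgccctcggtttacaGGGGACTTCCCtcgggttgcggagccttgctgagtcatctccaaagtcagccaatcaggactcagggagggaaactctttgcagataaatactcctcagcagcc
In Cxcl1 the capitals cover bases 71 to 61 before the start, in Cxcl2 bases 97 to 87 and in Cxcl3 bases 73 to 63. At each of these places a match on one strand overlaps a match on the other, shifted by 1 base, and the capitals are the same in all 3 genes. Cxcl10 holds the response element core at bases 213 to 204 and kappa-B matches at bases 159 to 150 and at bases 104 to 94.

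Promoters running from 250 bases before to 50 after a start were at hand for 43 of the 57 members. The kappa-B consensus was found in 8 of 27 ligand genes and 4 of 16 receptor genes, and in 8.46% of all 32851 promoters of that length. A gene with several starts counts as matching if any of its promoters does, whereas the share is over single promoters. Among the 14 risen ligands with a promoter, 5 held a match (Ccl9, Cxcl1, Cxcl2, Cxcl3 and Cxcl10), and the risen Ccl2, Ccl4, Ccl5, Ccl7, Ccl11, Cxcl5 and Cxcl16 were not searched. The other matching ligands were Ccl27a, which fell, and Ccl1 and Ccl20, which had too few counts to be tested. Of the matching receptors Ccr1 rose, while Ackr2, Ccr3 and Ccr6 did not pass. The response element core was in 3 of 27 ligand genes, of which Cxcl10 was the 1 that rose, and in 3.44% of all promoters. The gamma-activated site core (TTCNNNGAA, both strands) was in 2 of 27 ligand genes, in none of the 14 risen ligands and in 8.3% of all promoters. Such matches describe letters in a window, not occupied sites.

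Among the 28 tested ligands, 21 rose, 3 fell and 4 did not pass, with a median log2 fold change of 0.91, and 24 had no overlap between the groups. The share called was 85.7%, against 48.3% of all tested genes, of which 23.9% rose and 24.4% fell. Over all tested genes 55.6% had no overlap. The summed level of all 37 ligands was 528 to 563 CPM in PBS and 1054 to 1129.7 CPM in ONCM, so the 2 groups' sums did not overlap. By subfamily, 9 of 10 tested Cxcl genes rose and none fell, with a median log2 fold change of 1.46, whereas 12 of 17 tested Ccl genes rose and 3 fell. The difference between these subfamilies was not tested.

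**Figure D1:**
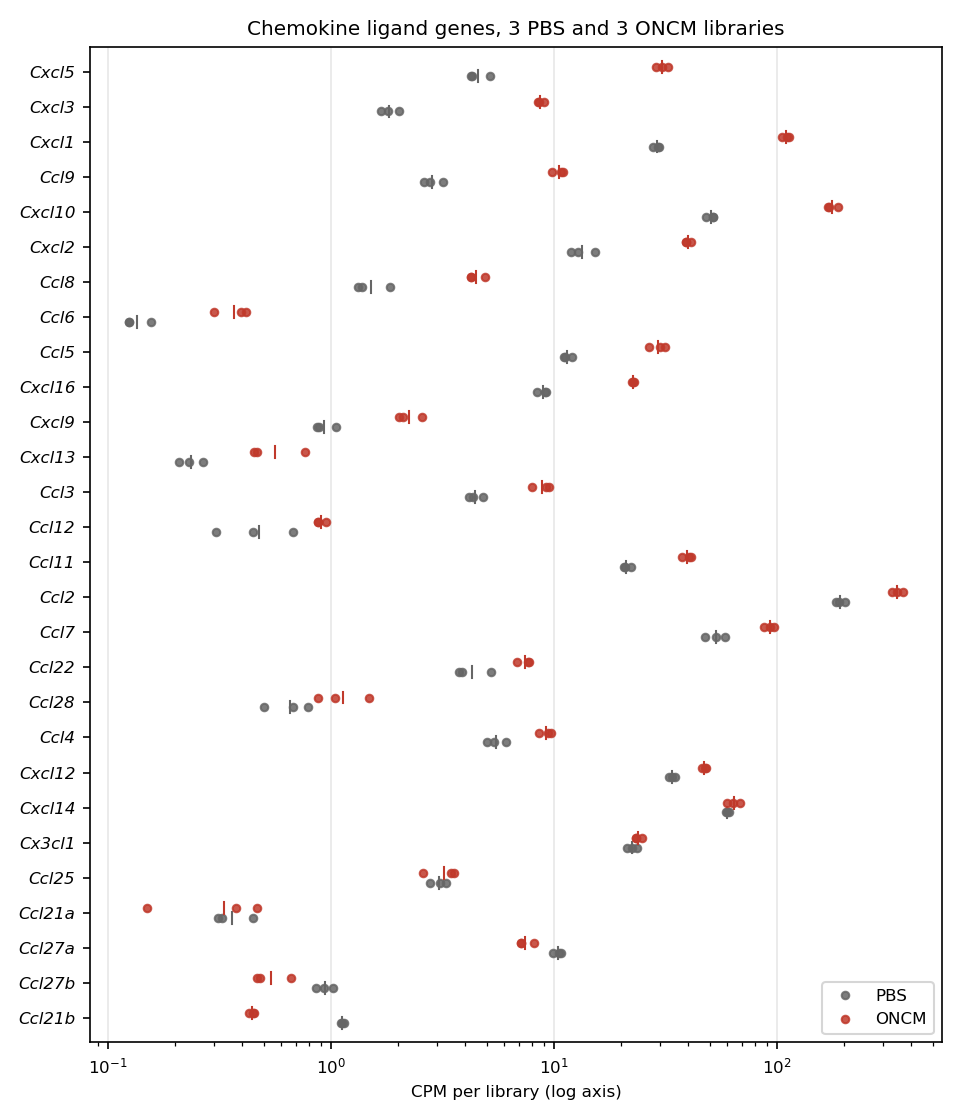
Levels of the tested chemokine ligand genes in CPM on a log axis, 1 point per library (grey PBS, red ONCM), with a vertical tick at each group's mean. Cxcl5, Cxcl3, Cxcl1 and Cxcl10 stand apart between the groups with ONCM to the right, while Ccl21b and Ccl27a stand apart with ONCM to the left.

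The neutrophil-attracting ligands that act through Cxcr2 gave the 3 largest rises among ligands. Cxcl5 (chromosome 5, 90759298 to 90761625) was at 4.31, 4.27 and 5.19 CPM in PBS and at 28.8, 30.4 and 32.6 CPM in ONCM. Every ONCM library was far above every PBS library, and the log2 fold change was 2.74 (SE 0.08, 6.67-fold, edgeR adjusted p = 3.47e-15). Cxcl3 (90786101 to 90788093) was at 1.67, 2.02 and 1.8 CPM in PBS and at 8.61, 8.51 and 8.99 CPM in ONCM, again without overlap. Its log2 fold change was 2.25 (SE 0.10, edgeR adjusted p = 3.27e-12). Cxcl1 (90891245 to 90893121), the KC chemokine of the mouse, stood at 27.9, 29.4 and 29.6 CPM in PBS and at 113, 111 and 105 CPM in ONCM. The groups did not overlap, and Cxcl1 rose 3.78-fold (log2 fold change 1.92, SE 0.04, edgeR adjusted p = 7.14e-17). For Cxcl2 (90903899 to 90905938), also called MIP-2, the PBS libraries held 12.0, 12.8 and 15.3 CPM and the ONCM libraries 39.0, 39.1 and 41.2 CPM. It rose 2.97-fold without overlap (log2 fold change 1.57, SE 0.07, edgeR adjusted p = 2.28e-12).

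These 4 genes lie in 1 cluster on chromosome 5, which also holds Cxcl15, with no count in any library. Pf4 and Ppbp, chemokine genes in the same cluster whose names fall outside the symbol rule, had log2 fold changes of 1.23 and 0.92, and Pf4 passed the threshold while Ppbp did not (edgeR adjusted p = 0.00242 and 0.097). Pf4, a platelet chemokine, was at 0.871 ± 0.37 CPM in PBS and 2.07 ± 0.541 CPM in ONCM (mean ± SD, n = 3). Of the 50-base windows of the Cxcl3 transcripts, 6.3% also occur in Cxcl2, and 3.4% of those of Cxcl2 occur in Cxcl3, so a small share of reads could be given to either.

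The interferon-induced ligands of Cxcr3 were also higher. Cxcl10 (chromosome 5, 92346638 to 92348889) was at 48.3, 51.6 and 51.8 CPM in PBS and at 172, 170.1 and 188 CPM in ONCM. All ONCM libraries exceeded all PBS libraries, and the rise was 3.49-fold (log2 fold change 1.80, SE 0.04, edgeR adjusted p = 2.92e-16). Cxcl9, which interferon gamma in particular induces, was at 0.866, 1.05 and 0.882 CPM in PBS and at 2.55, 2.03 and 2.11 CPM in ONCM (log2 fold change 1.25, SE 0.17, edgeR adjusted p = 7.09e-06). Its level was low in both groups but did not overlap. The neighbouring Cxcl11, a pseudogene in the table, was at 1.48, 1.31 and 1.4 CPM in PBS and at 3.18, 3.16 and 2.47 CPM in ONCM (log2 fold change 1.07, SE 0.15, edgeR adjusted p = 1.03e-05). In the stretch of chromosome 5 from Cxcl9 to Cxcl13, the 14 other tested genes, Cxcl11 among them, had a median log2 fold change of -0.03. Of these 14 genes 4 rose and 5 fell, against 23.9% and 24.4% of all tested genes.

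Cxcl16, the membrane-bound ligand of Cxcr6, was at 9.23, 8.4 and 9.1 CPM in PBS and at 22.9, 22.3 and 22.7 CPM in ONCM. It rose 2.54-fold without overlap (log2 fold change 1.34, SE 0.06, edgeR adjusted p = 2.49e-12). Of its 50-base windows, 19.0% also lie in transcripts of the overlapping gene Zmynd15. Cxcl13, which draws B cells through Cxcr5, was at 0.232, 0.268 and 0.208 CPM in PBS and at 0.762, 0.45 and 0.466 CPM in ONCM (log2 fold change 1.23, SE 0.34, edgeR adjusted p = 0.00635). Without ONCM replicate 1 the log2 fold change was 0.95 and the edgeR adjusted p 0.0593.

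Cxcl12, the stromal ligand of Cxcr4 and Ackr3, gave the smallest rise among the called ligands. It was at 35.0, 33.0 and 34.0 CPM in PBS and at 48.0, 47.4 and 46.1 CPM in ONCM, a narrow but complete separation (log2 fold change 0.47, SE 0.04, 1.39-fold, edgeR adjusted p = 2.83e-08). Cxcl14, a broadly expressed chemokine, was at 60.9, 59.1 and 59.7 CPM in PBS and at 60.0, 63.5 and 68.5 CPM in ONCM. The groups overlapped and the test was not passed (log2 fold change 0.10, SE 0.04, edgeR adjusted p = 0.084), except without ONCM replicate 1, where the value was 0.14 with an edgeR adjusted p of 0.0168. Cx3cl1, the fractalkine that neurons are known to carry, was at 21.3 to 23.5 CPM in PBS and at 23.3 to 24.9 CPM in ONCM and did not pass either (log2 fold change 0.09, SE 0.05, edgeR adjusted p = 0.183).

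**Figure D2:**
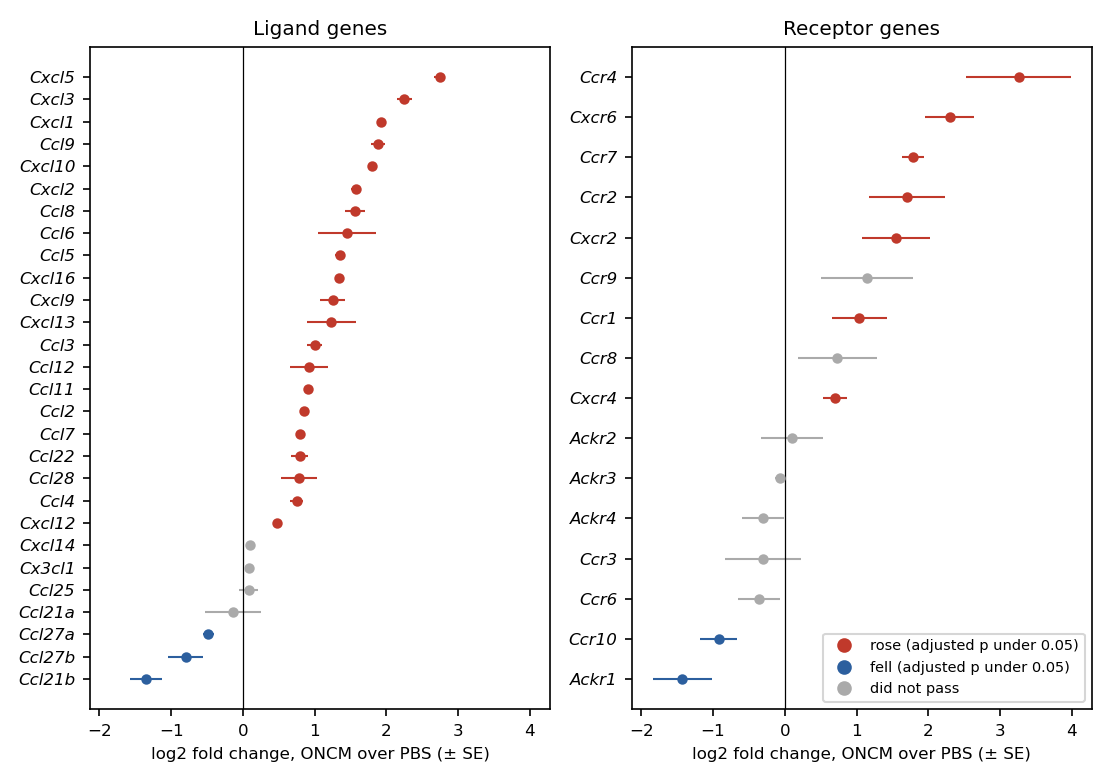
Log2 fold change of the tested members that are reported here, ONCM over PBS, ligands and receptors in separate panels, with bars of 1 SE. Red members rose, blue fell and grey did not pass an edgeR adjusted p of 0.05; ligands run from -1.35 for Ccl21b to 2.74 for Cxcl5, and Ccr4 carries the widest bar, with an SE of 0.73.

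All 10 tested CC ligands in the 2 clusters of chromosome 11 rose, against 23.9% of all tested genes. In the first cluster, which runs from Ccl2 to Ccl1, Ccl2 (82035577 to 82037452), the main monocyte attractant, was at 190.4, 185 and 203 CPM in PBS and at 345, 327 and 369 CPM in ONCM. Without overlap between groups, it rose 1.8-fold (log2 fold change 0.85, SE 0.04, edgeR adjusted p = 1.97e-10). Ccl7, a further ligand of Ccr2, stood at 47.7, 53.6 and 58.5 CPM in PBS and at 97.4, 88.0 and 93.0 CPM in ONCM (log2 fold change 0.80, SE 0.06, edgeR adjusted p = 7.37e-07). Ccl11, the eosinophil attractant eotaxin, was at 20.6, 20.8 and 22.1 CPM in PBS and at 41.2, 40.3 and 37.7 CPM in ONCM (log2 fold change 0.91, SE 0.05, edgeR adjusted p = 4.02e-11). These 3 neighbours rose by similar amounts, 1.74-fold to 1.88-fold. Ccl8, an agonist of Ccr8 in the mouse, rose further, from 1.33, 1.38 and 1.85 CPM in PBS to 4.26, 4.25 and 4.93 CPM in ONCM (log2 fold change 1.56, SE 0.14, edgeR adjusted p = 4.02e-08). Ccl12, close in sequence to Ccl2, was at 0.448, 0.304 and 0.675 CPM in PBS and at 0.874, 0.949 and 0.878 CPM in ONCM (log2 fold change 0.92, SE 0.27, edgeR adjusted p = 0.0102). The Ccl12 call was lost with DESeq2 (adjusted p = 0.0672) and without PBS replicate 2 (edgeR adjusted p = 0.0562).

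The second cluster of chromosome 11 holds ligands known to act on monocytes, macrophages and T cells. Ccl5 (83525778 to 83530518), known as RANTES, was at 12.1, 11.1 and 11.2 CPM in PBS and at 29.9, 26.6 and 31.6 CPM in ONCM. Its groups stood well apart, a 2.56-fold rise (log2 fold change 1.35, SE 0.07, edgeR adjusted p = 7.81e-12). Ccl9, a myeloid chemokine of the mouse, was at 2.78, 2.61 and 3.18 CPM in PBS and at 11, 9.84 and 10.8 CPM in ONCM. This was the largest rise among tested CC ligands (3.69-fold, log2 fold change 1.88, SE 0.10, edgeR adjusted p = 1.37e-11). Its neighbour Ccl6 was far lower, at 0.124, 0.125 and 0.156 CPM in PBS and 0.298, 0.416 and 0.394 CPM in ONCM (log2 fold change 1.45, SE 0.40, edgeR adjusted p = 0.00582), and missed the threshold with DESeq2 (adjusted p = 0.0555). Ccl3 and Ccl4, the macrophage inflammatory proteins MIP-1 alpha and beta, also rose. Ccl3 was at 4.16, 4.36 and 4.79 CPM in PBS and at 9.5, 7.95 and 9.21 CPM in ONCM (log2 fold change 1.00, SE 0.10, edgeR adjusted p = 7.21e-08). Ccl4 was at 5.0, 6.11 and 5.38 CPM in PBS and at 9.37, 9.68 and 8.56 CPM in ONCM (log2 fold change 0.75, SE 0.09, edgeR adjusted p = 1.82e-06). The annotated spans of Ccl3 (83647843 to 83649378) and Ccl4 (83648624 to 83664683) overlap, so reads could have been shared between them. In GENCODE transcripts 0.0% of the 50-base windows of either gene occur in another gene, but the annotation behind the counts is not given. No other gene within either cluster of chromosome 11 had enough counts to be tested.

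**Figure D3:**
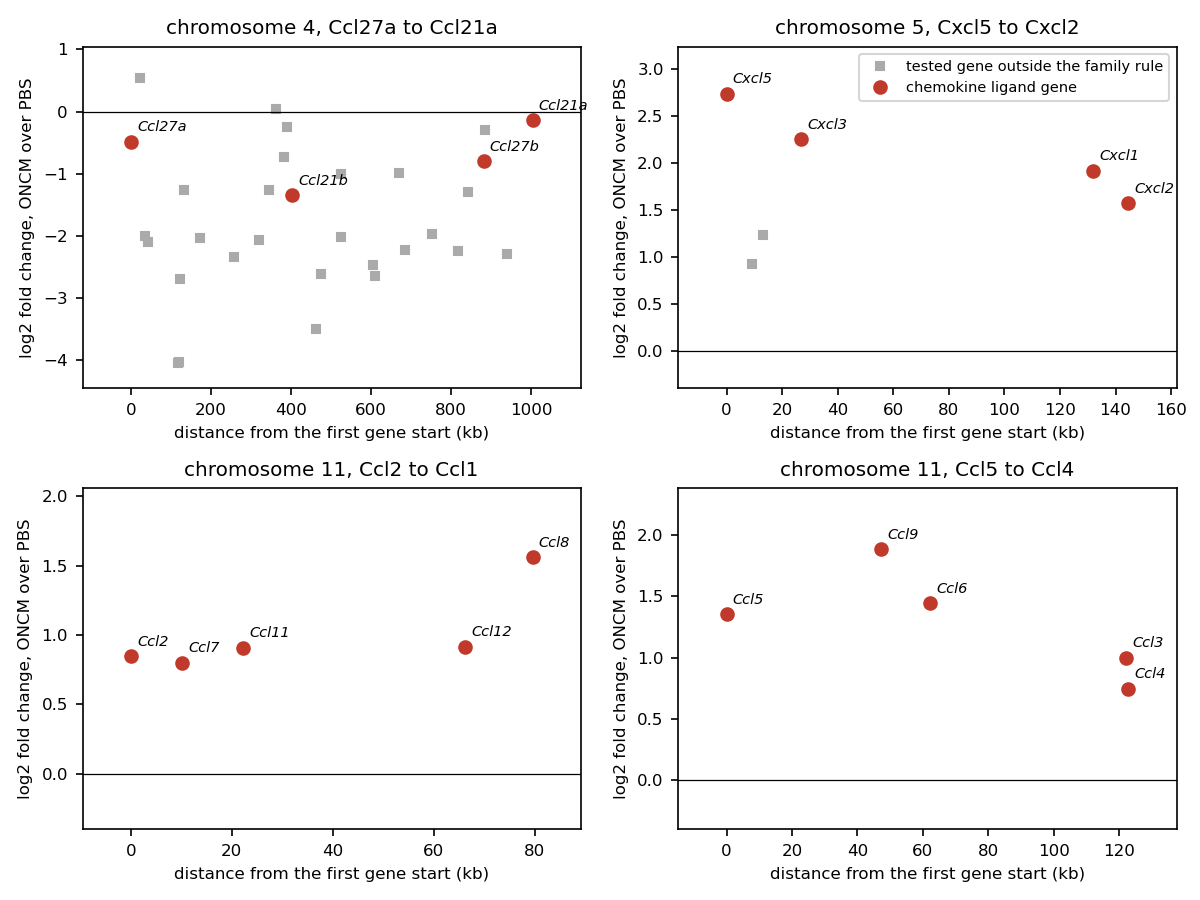
Log2 fold change, ONCM over PBS, against distance in kb from the first gene's start for 4 stretches holding chemokine ligand genes (red circles) and other tested genes (grey squares), the stretch of chromosome 5 from Cxcl9 to Cxcl13 not being plotted. All tested genes of the chromosome 5 and chromosome 11 stretches that are plotted lie above 0. Chemokine ligands of the chromosome 4 stretch lie below 0 among neighbours with a median of -2.03, which include copies of Ccl21 and Ccl27.

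Other CC ligands lie outside these clusters. Ccl22, a macrophage and dendritic cell ligand of Ccr4, was at 3.87, 3.75 and 5.23 CPM in PBS and at 6.81, 7.71 and 7.65 CPM in ONCM (1.73-fold, log2 fold change 0.79, SE 0.12, edgeR adjusted p = 1.55e-05). Ccl28, an epithelial ligand of Ccr10, was at 0.789, 0.679 and 0.502 CPM in PBS and at 0.874, 1.48 and 1.04 CPM in ONCM (log2 fold change 0.78, SE 0.25, edgeR adjusted p = 0.0148). The call for Ccl22 stood under every alternative, but that for Ccl28 did not, its edgeR adjusted p being 0.128 without ONCM replicate 2 and 0.0736 without PBS replicate 3, and its DESeq2 adjusted p 0.0857. Ccl25, the thymic and gut ligand of Ccr9, was at 3.08, 3.27 and 2.77 CPM in PBS and at 2.6, 3.45 and 3.56 CPM in ONCM, with overlap and no call (log2 fold change 0.08, SE 0.13, edgeR adjusted p = 0.667).

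The 3 ligands that fell all lie on chromosome 4, between 41769467 (Ccl27a) and 42773991 (Ccl21a). Ccl27a, a skin chemokine that binds Ccr10, was at 9.93, 10.8 and 10.6 CPM in PBS and at 7.1, 7.13 and 8.15 CPM in ONCM (log2 fold change -0.48, SE 0.08, edgeR adjusted p = 5.9e-05). Its copy Ccl27b was at 1.02, 0.858 and 0.934 CPM in PBS and at 0.483, 0.466 and 0.663 CPM in ONCM (log2 fold change -0.80, SE 0.24, edgeR adjusted p = 0.00956; DESeq2 adjusted p = 0.0772). Ccl21b, a copy of the lymphoid ligand of Ccr7, was at 1.14, 1.11 and 1.12 CPM in PBS and at 0.428, 0.45 and 0.448 CPM in ONCM (log2 fold change -1.35, SE 0.22, edgeR adjusted p = 6.44e-05). In each of these 3 genes all ONCM libraries were below all PBS libraries. Ccl21a, in contrast, was at 0.325, 0.447 and 0.311 CPM in PBS and at 0.465, 0.15 and 0.376 CPM in ONCM, with overlap and no call (log2 fold change -0.14, SE 0.39, edgeR adjusted p = 0.807).

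Levels of these single copies are uncertain, because the copies share sequence. Every 50-base window of the Ccl21b transcripts also occurs in another gene, as do 98.1% of those of Ccl27b, 71.6% of those of Ccl21a and 66.4% of those of Ccl27a. When the 5 rows that share windows with Ccl21b were summed (Ccl21a, Ccl21b, Gm10591, Gm13304 and Gm21541), the counts were 299, 248 and 252 with PBS and 109, 115 and 115 with ONCM (log2 fold change -1.16, SE 0.12, edgeR adjusted p = 1.14e-07). The 3 rows of Ccl27 (Ccl27a, Ccl27b and Gm13306) summed to 777, 713 and 725 counts with PBS and to 440, 491 and 532 counts with ONCM (log2 fold change -0.53, SE 0.08, edgeR adjusted p = 1.28e-05). Both sums thus fell without overlap. The stretch of chromosome that holds these genes was chosen after its values were seen. Of its 27 other tested genes 22 fell and none rose, against 24.4% and 23.9% of all tested genes. Among the fallen are Gm10591, Gm13304, Gm21541 and Gm13306, the copies summed above, so the 27 are not all separate from the chemokine copies. The median log2 fold change of the 27 genes was -2.03 (range -4.05 to 0.54), lower than the value of any of the 4 tested chemokine genes beside them.

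The 9 ligands with too few counts to be tested were Ccl1, Ccl17, Ccl19, Ccl20, Ccl24, Ccl26, Cxcl15, Cxcl17 and Xcl1. Summed over 3 libraries, Ccl17 had 12 counts with PBS and 30 with ONCM, Ccl20 had 21 and 6, and Ccl1 had 22 and 14. Xcl1 had 24 and 21 counts, Ccl24 had 17 and 25, Ccl19 had 11 and 17, and Cxcl17 had 2 in each group. Ccl26 and Cxcl15 were at 0 in all 6 libraries, where 3 counts in a library are 0.0465 to 0.0558 CPM.

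Among the 17 tested receptors, 8 rose, 2 fell and 7 did not pass, with a median log2 fold change of 0.73, and 9 had no overlap between groups. The share called was 58.8%, against 48.3% of all tested genes, and 9 of 17 is close to the 55.6% of all tested genes without overlap. The number of risen receptors was 5 with DESeq2. Of the 20 receptor genes, 14 were under 1 CPM in both groups. Most receptor values therefore rest on few counts. Within the receptors, 5 of 10 tested Ccr genes rose and 1 fell, all 3 tested Cxcr genes rose, and none of the 4 Ackr genes rose while 1 fell. Summed over the 20 genes, receptors were at 23.0 to 30.7 CPM in PBS and at 25.2 to 26.9 CPM in ONCM, which overlapped, and most of that sum was Ackr1 and Ackr3.

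**Figure D4:**
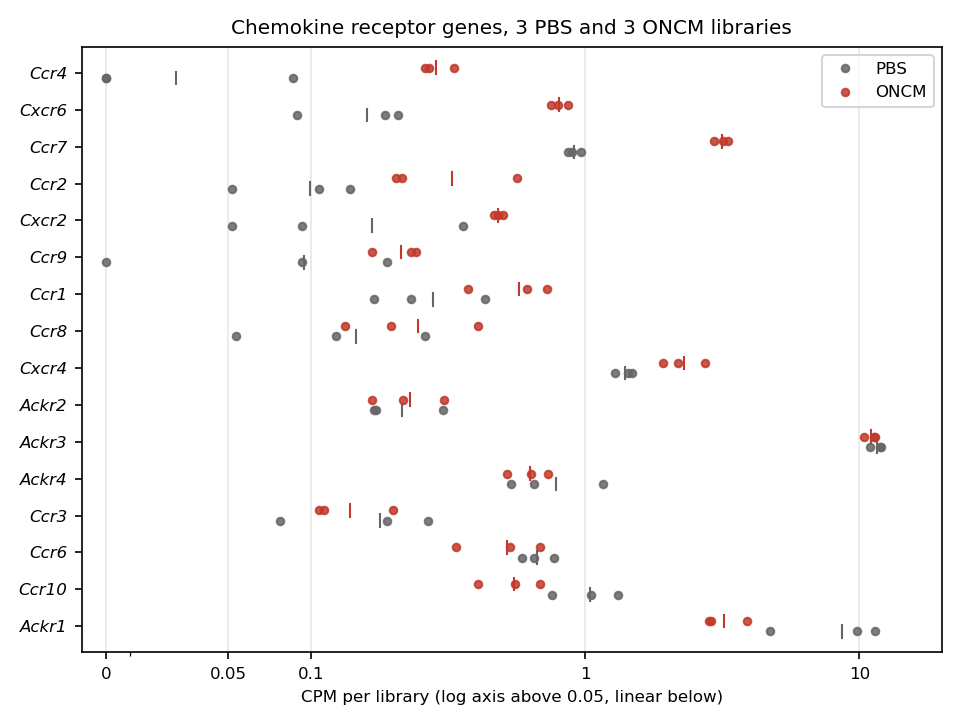
Levels of tested chemokine receptor genes that are reported here, in CPM, 1 point per library (grey PBS, red ONCM), with a vertical tick at each group's mean, on an axis that is logarithmic above 0.05 CPM and linear below. Ccr7 and Cxcr6 separate with ONCM higher, most other receptors lie under 1 CPM, and the PBS libraries of Ackr1 spread from 4.74 to 11.4 CPM.

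Ccr7, which guides dendritic cells and lymphocytes to lymph nodes, was at 0.866, 0.894 and 0.969 CPM in PBS and at 2.94, 3.33 and 3.17 CPM in ONCM. It had the best-measured receptor rise, 3.46-fold with no overlap (log2 fold change 1.79, SE 0.15, edgeR adjusted p = 1.38e-08). Cxcr4, the receptor of Cxcl12, was at 1.48, 1.29 and 1.44 CPM in PBS and at 2.19, 1.93 and 2.74 CPM in ONCM (log2 fold change 0.70, SE 0.17, edgeR adjusted p = 0.00175). Cxcr6, the receptor of Cxcl16, was at 0.186, 0.0894 and 0.208 CPM in PBS and at 0.8, 0.866 and 0.752 CPM in ONCM (log2 fold change 2.30, SE 0.34, edgeR adjusted p = 1.67e-05). None of these 3 receptors overlapped between groups, and each call stood under all alternatives.

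Ccr4, the receptor of Ccl17 and Ccl22, had 0, 0 and 5 counts with PBS and 14, 20 and 15 counts with ONCM (log2 fold change 3.26, SE 0.73, edgeR adjusted p = 0.00117). The size of that change rests on 1 library, since without PBS replicate 3 the PBS group is at 0 and the fitted value was 7.07 (edgeR adjusted p = 0.000274). Ccr2, the receptor of Ccl2 and a marker of inflammatory monocytes, had 9, 6 and 3 counts with PBS and 11, 34 and 12 counts with ONCM (log2 fold change 1.70, SE 0.53, edgeR adjusted p = 0.0128). It was led by 1 library, and without ONCM replicate 2 the log2 fold change was 1.05 with an edgeR adjusted p of 0.189. The Ccr2 call was also lost without PBS replicate 3 (edgeR adjusted p = 0.0683) with DESeq2 (adjusted p = 0.0742) and with limma on the deposited TPM. Cxcr2, the neutrophil receptor of the CXC ligands described above, had 6, 20 and 3 counts with PBS and 27, 29 and 26 counts with ONCM (log2 fold change 1.55, SE 0.48, edgeR adjusted p = 0.0126). PBS replicate 2 held most of its PBS counts, and without that library the log2 fold change was 2.68 (edgeR adjusted p = 0.000409). The Cxcr2 call was lost without PBS replicate 1 (edgeR adjusted p = 0.0704), without PBS replicate 3 (0.0692) and with DESeq2 (adjusted p = 0.0727). Ccr1, a myeloid receptor of Ccl3 and Ccl5, had 11, 13 and 25 counts with PBS and 39, 37 and 21 counts with ONCM, which overlapped (log2 fold change 1.04, SE 0.38, edgeR adjusted p = 0.0294). Ccr1 did not pass in 8 of the 14 alternative settings, among them those without PBS replicate 1, PBS replicate 2, ONCM replicate 1 or ONCM replicate 2, with adjusted p from 0.0559 to 0.137.

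Ccr10, the receptor of Ccl27 and Ccl28, fell. It was at 1.05, 1.32 and 0.761 CPM in PBS and at 0.409, 0.683 and 0.555 CPM in ONCM (log2 fold change -0.92, SE 0.26, edgeR adjusted p = 0.00768). The groups did not overlap, but the call was lost with DESeq2 (adjusted p = 0.0512) and without PBS replicate 2 (edgeR adjusted p = 0.056). Ccr3, Ccr6, Ccr8 and Ccr9 did not pass. Their log2 fold changes were -0.31 (SE 0.53), -0.36 (SE 0.29), 0.73 (SE 0.55) and 1.14 (SE 0.64), and all 4 were under 1 CPM in both groups. Cxcr1, Cxcr3 and Cxcr5 had too few counts to be tested. The Cxcl9 and Cxcl10 receptor Cxcr3 had 0, 3 and 4 counts with PBS and 16, 4 and 11 counts with ONCM, Cxcr5 had 15 and 16 counts in all, and Cxcr1 had 4 counts with PBS and 0 with ONCM.

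Ackr1 and Ackr3 were the most abundant receptor genes per length. Ackr1, the Duffy receptor that venular endothelium and red cells carry, was at 9.8, 11.4 and 4.74 CPM in PBS and at 2.83, 2.88 and 3.9 CPM in ONCM. The groups did not overlap, but the PBS libraries differed by more than 2-fold among themselves (log2 fold change -1.43, SE 0.41, edgeR adjusted p = 0.0439). The call was lost without PBS replicate 1 or any 1 of the 3 ONCM libraries (log2 fold change -1.60 to -1.34, edgeR adjusted p from 0.0948 to 0.137) and without a filter on low counts (edgeR adjusted p = 0.0715), whereas without PBS replicate 3, the low one, it was firmer (log2 fold change -1.73, edgeR adjusted p = 4.45e-08). Of 10 endothelial markers 6 rose and none fell, against 48.3% of all tested genes called, and their summed level was 169.8 to 176 CPM in PBS and 199 to 207 CPM in ONCM. The part of endothelial cells in the Ackr1 value was not tested. Ackr3, the scavenging receptor of Cxcl12, was at 10.9, 12.0 and 11.9 CPM in PBS and at 10.4, 11.4 and 11.3 CPM in ONCM (log2 fold change -0.07, SE 0.07, edgeR adjusted p = 0.436). It overlapped between groups, as did the low Ackr2 (log2 fold change 0.10, SE 0.43) and Ackr4 (log2 fold change -0.30, SE 0.29), neither of which passed. Of the 50-base windows of Ackr1, 6.1% also occur in transcripts of Cadm3, and 12.9% of those of Ackr4 occur in Acad11.

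Levels of different genes were compared as TPM, the authors' deposited values, which are scaled to transcript length and library size. Ccl2 was the most abundant ligand in both groups, at a mean of 607 TPM with PBS and 1047 TPM with ONCM, followed with PBS by Ccl7 at 169 TPM and Cxcl10 at 117 TPM. With ONCM the second place was held by Cxcl10 at 389.6 TPM, with Ccl7 at 282 TPM and Cxcl1 at 279 TPM next, and these last 2 were hardly apart. The share of Ccl2 in the summed ligand TPM was lower with ONCM, at 44.3% to 46.1% under PBS and 38.4% to 40.1% under ONCM. Over the same libraries the share of Cxcl10 was 8.5% to 9.05% and 14.2% to 14.9%, and that of Cxcl1 was 5.61% to 5.94% and 9.63% to 11%. The share of Cxcl14 went the other way, standing at 5.52% to 6.15% under PBS and 2.82% to 3.13% under ONCM, although its own level did not pass the test. Cxcl5 moved from rank 16 among the 37 ligands to rank 9.

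**Figure D5:**
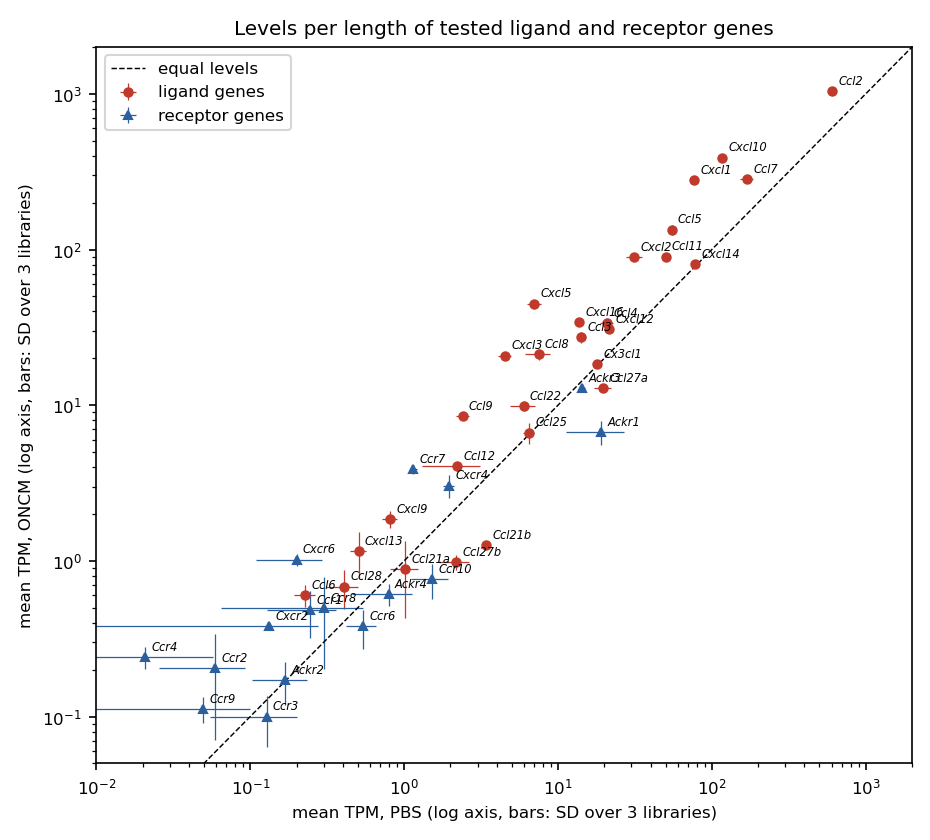
Mean TPM with PBS (x axis) against mean TPM with ONCM (y axis) for tested ligand genes (red circles) and receptor genes (blue triangles) reported here, both axes logarithmic, with bars of 1 SD over 3 libraries that run off the left edge where the SD exceeds the mean. Most ligands lie above the dashed line of equal levels, with Ccl2 highest at 607 and 1047 TPM, and all plotted receptors except Ackr1 and Ackr3 lie under 10 TPM.

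Summed over the family, ligand transcripts were far more abundant than receptor transcripts. Summed TPM of the ligands was 1309 to 1393 under PBS and 2595 to 2737 under ONCM, and that of the receptors was 32.4 to 48.0 and 31.6 to 34.1. At 10 TPM or more there were 14 ligands with PBS and 17 with ONCM, but only 2 receptors with PBS (Ackr1 and Ackr3) and 1 with ONCM (Ackr3). The contrast was wide for Ccl2 and its receptor Ccr2, at 607 and 0.0591 TPM with PBS and at 1047 and 0.205 TPM with ONCM. Cxcl1 and its receptor Cxcr2 were at 77.0 and 0.132 TPM with PBS and at 279 and 0.381 TPM with ONCM. The stromal ligand Cxcl12 and its receptor Cxcr4 were closer, at 21.5 and 1.96 TPM with PBS and at 30.7 and 3.04 TPM with ONCM, and Ackr3, which also binds Cxcl12, was at 14.3 TPM with PBS and 12.9 TPM with ONCM. For some pairs the receptor was higher, as for Ccl28 and Ccr10 at 0.406 and 1.52 TPM with PBS and at 0.682 and 0.76 TPM with ONCM. Ccl27a, another ligand of Ccr10, was above that receptor, at 19.7 TPM with PBS and 12.9 TPM with ONCM. Ccl20 and Ccr6 were at 0.344 and 0.54 TPM with PBS and at 0.0929 and 0.379 TPM with ONCM, but Ccl20 had too few counts to be tested. Its counts were 13, 8 and 0 with PBS and 0, 0 and 6 with ONCM.

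Related genes outside the symbol rule were taken from a list of 17, of which 15 were tested, 9 rose and 1 fell (median log2 fold change 0.39). The share called was 66.7%, against 48.3% of all tested genes. Ccrl2, an atypical relative that presents chemerin, rose from 3.13 ± 0.189 to 7.03 ± 0.128 CPM (mean ± SD, n = 3), log2 fold change 1.16 (SE 0.10, edgeR adjusted p = 1.04e-08). Cd74, the receptor of Mif and the invariant chain of class II antigen presentation, rose from 33.3 ± 2.33 to 70.4 ± 5.73 CPM (mean ± SD, n = 3, log2 fold change 1.08). The fractalkine receptor Cx3cr1, a microglia and macrophage gene, was at 0.448, 0.679 and 0.294 CPM in PBS and at 1.13, 0.816 and 0.502 CPM in ONCM, which overlapped and did not pass (log2 fold change 0.79, SE 0.33, edgeR adjusted p = 0.0591).

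Genes that act upstream or downstream of chemokines were counted in 4 lists. Among all tested genes 48.3% were called, 23.9% upwards and 24.4% downwards. Against this, 74.4% of the tested receptor signalling genes and 77.8% of the tested processing and presentation genes were called. Of 43 tested genes of receptor signalling, 23 rose and 9 fell (median log2 fold change 0.15), among them the G protein subunit Gng2 (0.67), arrestin Arrb1 (0.57), the phospholipase Plcb3 (-1.03) and the G protein regulator Rgs10 (-0.81). Of 18 tested genes for the processing and presentation of ligands, 14 rose and none fell (median 0.45). The heparan sulphate carrier Sdc1, a syndecan on which chemokines can be held at the cell surface, was at 32.1 ± 1.31 CPM in PBS and 128 ± 5.53 CPM in ONCM (mean ± SD, n = 3), a 3.99-fold rise (SE of the log2 value 0.04, edgeR adjusted p = 7.14e-17). Sdc3, Sdc4 and the heparan sulphate sulphotransferase Hs2st1 rose by log2 fold changes of 0.65, 0.54 and 0.46.

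In the NF-kB list, 18 of 22 tested genes rose and none fell (median 0.38), including Nfkbia (log2 fold change 0.75) and Tnfaip3 (0.79), which restrain the pathway, and Nfkb1 (0.57) and Nfkbiz (0.86). Of 15 tested genes of interferon input, 12 rose and 1 fell (median 0.52). The shares called were 81.8% for the NF-kB list and 86.7% for interferon input, against 48.3% of all tested genes. Irf7, a transcription factor of the type I interferon response, was at 18.4 ± 0.84 CPM in PBS and 61.7 ± 3.23 CPM in ONCM (mean ± SD, n = 3, log2 fold change 1.75, SE 0.05, edgeR adjusted p = 4.31e-15). Stat2 (0.77) and Jak1 (0.44) rose as well, while the interferon gamma transcript Ifng had no count in any library.

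Markers of cells that chemokines act on, or that make them, were read in the same libraries. All 18 macrophage markers rose (median log2 fold change 1.89), against 23.9% of all tested genes. They were led in the test by Mpeg1 from 11.4 ± 0.681 to 44.5 ± 1.78 CPM and by C1qc from 0.991 ± 0.0387 to 8.45 ± 0.19 CPM (mean ± SD, n = 3). Their summed level was 3.03 times as high with ONCM, against 2.02 times for the ligands. Of 10 neutrophil markers 6 were tested and 3 rose (Ly6g, Csf3r and Ltf), S100a9 did not pass, and Mpo was at 0 in all libraries. The share of tested neutrophil markers called was 50%, near the 48.3% of all tested genes. Their log2 fold changes ran from -0.72 to 3.78. The neutrophil sum was 2.69 to 3.0 CPM in PBS and 5.34 to 5.46 CPM in ONCM. Of 13 lymphocyte markers 5 were tested and 1, Cd8a, rose, while the T cell receptor genes Cd3d, Cd3e and Cd3g had too few counts to be tested and Ms4a1 was at 0 with PBS. Of the tested lymphocyte markers 20% were called, against 48.3% of all tested genes. The lymphocyte sum was 5.18 to 6.93 CPM and 5.88 to 6.56 CPM, which overlapped.

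Among tested markers of resident cells, 50% of the fibroblast, 60% of the Schwann cell, 37.5% of the satellite glia and 83.3% of the sensory neuron list were called, against 48.3% of all tested genes. Of 10 fibroblast markers 5 rose and none fell, from a sum of 307 to 313 CPM in PBS to 444 to 465 CPM in ONCM, with Dcn and Lum first. Schwann cell markers summed to 3922 to 3998 CPM and 4118 to 4259 CPM, with 5 of 10 risen and 1 fallen. Satellite glia markers summed to 1899 to 1969 CPM and 1929 to 2078 CPM, with 1 of 8 risen and 2 fallen. Sensory neuron markers summed to 11823 to 12062 CPM in PBS and 10659 to 11202 CPM in ONCM, with 9 of 12 fallen and 1, Tubb3, risen. The labelled cell type was thus present in both groups together with other cells of the ganglion, and the part of each in the chemokine values was not tested.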

How the data were processed

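RNA sequencing counts from 3 PBS and 3 ONCM libraries of DRG cultures were analysed. The authors deposited raw read counts, TPM and FPKM for 45777 genes. Counts entered the tests as deposited, the deposited TPM served for levels between genes and as an alternative, and the deposited FPKM were not used here. The build is mm10 per the submitters' processing notes. Not given in the sources used here: aligner, counter, annotation and strandedness. Overlapping, antisense and near-identical genes may share reads. Coordinates are those of RefSeq, GRCm38.p6, matched by gene number for 45675 genes, and the shared 50-base windows were computed on GENCODE transcripts.

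In R 4.3.3, edgeR 4.0.16 was run with filterByExpr defaults, TMM scaling, robust dispersions and the quasi-likelihood F-test without covariates. Benjamini-Hochberg adjustment covered all 20354 tested genes, and an adjusted p under 0.05 counted as passing. The SE is the size of the log2 fold change divided by the square root of F. The fit was checked on simulated counts, where the share of false calls lay above that threshold. Far fewer genes were made to change there than were called in the real data, so the share for the real calls is not known. Replicates differed by more than sampling noise (chi-square per degree of freedom 2.85 to 8.13), so no pair was taken for a repeat deposit of 1 library. A floor of 3 counts in a library is 0.0465 to 0.0558 CPM and covers counting error only.

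A receptor and a listed gene are counted but not reported here by name. Every other tested member is named, with values per library for members of at least 1 CPM or past the threshold, and up to 4 genes of the smallest p from each of 13 further lists. Ifng, Mpo, Ms4a1, the Cd3 genes, Cx3cr1, Pf4 and Ppbp were named after their values were seen. Members, lists and tests were chosen with earlier results of these data known. Alternatives were DESeq2 1.42.0, other scaling, no filter, limma 3.58.1 on log2 TPM, a replicate block, removal of chromosomes X, Y and MT, each library left out, and copies summed, the last chosen after seeing the data.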

Additional observations from a re-analysis of the deposited data

How the results depend on the processing

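Across 14 alternative settings, 24 of the 34 called members (19 ligands and 5 receptors) kept their call wherever a value could be had. The number of receptor genes raised went from 8 to 5 with DESeq2. The number of receptor genes lowered went from 2 to 1 with DESeq2, with no filter on low counts and with the replicate block, and was 1 to 2 with 1 library left out. Without PBS replicate 1, PBS replicate 2, ONCM replicate 1, ONCM replicate 2 or ONCM replicate 3 it was 1. Same-numbered libraries showed no large shared deviation (correlations -0.0453, -0.0124 and 0.00167), and differently numbered pairs ran from -0.0198 to 0.0337. Such values over all genes cannot decide whether the numbers pair the samples. With the replicate block 9597 of all genes, 21 ligands upwards, 3 ligands downwards, 7 receptors upwards and 1 receptor downwards were called. The calls for Ackr1 (log2 fold change -1.38, edgeR adjusted p = 0.122) and Ccr1 (1.06, 0.0559) were lost with this block. Only members that had not passed changed sign, each with 1 library left out. The log2 fold change of Ackr2 then ran from -0.15 (without ONCM replicate 3) to 0.41, that of Ackr4 from -0.52 to 0.08 (without PBS replicate 2) and that of Ccr3 from -0.70 to 0.09 (without PBS replicate 2). Ccl21a ran from -0.46 to 0.22 (without ONCM replicate 2) and Ccl25 from -0.00 (without ONCM replicate 3) to 0.21. The cause of these shifts was not tested. Low counts limit the precision for the 14 of 20 receptors and 14 of 37 ligands that were under 1 CPM in both groups.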
